A study of Mus musculus with 10 samples.

Results

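To follow cholesterol synthesis in blood progenitors after Dhx9 deletion, 8 genes were examined: the enzyme genes Hmgcs1, Idi1, Fdps, Fdft1, Sqle and Lss and the regulator genes Srebf2 and Insig1. They were taken by name from the deposited table, in which all 8 were found among 55359 genes and had a mean of 0.1 FPKM or more, as did 18742 genes in all. FPKM is the number of sequenced fragments scaled to gene length and library depth. RNA was taken from bone marrow depleted of lineage-positive cells (Lin-). The WT group is 5 samples of genotype Dhx9f/f and the cKO group 5 of genotype Dhx9f/f;MX1, so that both carry the floxed Dhx9 alleles and only the second also carries Cre recombinase under the Mx1 promoter. That promoter answers to interferon and is switched on with poly(I:C), which is not particular to blood cells and itself triggers interferon. The sources used here do not state the age of the mice sequenced or whether the WT mice received poly(I:C), so that an effect of poly(I:C) and one of the genotype cannot be told apart if they did not.

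Cells build cholesterol from acetyl-CoA. Hmgcs1 encodes the synthase that makes HMG-CoA, the mevalonate steps follow, and Idi1 encodes the isomerase that interconverts the 5-carbon units IPP and DMAPP. Fdps joins such units into farnesyl diphosphate, from which prenyl groups, ubiquinone and dolichol also derive, and Fdft1 commits it to sterols as squalene. Sqle oxidizes squalene and Lss closes the rings to give lanosterol. The genes of these enzymes are classical targets of SREBP-2, the transcription factor encoded by Srebf2, which the INSIG proteins hold in the endoplasmic reticulum when sterols are plentiful, and Insig1 is itself a target.

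As read from the steps between low values, 1 FPKM stood for 13.8 to 18.8 fragments per kilobase of gene, depending on the depth of the library. The targeted gene went against the labels, as Dhx9 was at 65.43 to 72.42 FPKM in WT and at 130.82 to 156.49 in the libraries labelled cKO. Libraries are therefore named by their labels, and every direction below rests on them. Xist was above 1 FPKM, and the Y-linked Ddx3y at or below 0.05, in WT 3, 4 and 5 and in no library labelled cKO. The progenitor gene Kit was at 36.56 to 54.36 FPKM in WT and at 18.73 to 31.11 in the libraries labelled cKO. Cd3e of mature T cells did not exceed 0.6 FPKM in any library. Other markers of T and NK cells reached higher levels, such as Cd3d at 1.17 FPKM in cKO 3 and Nkg7 at 95.95 in WT 5. Levels of cell type markers differed between the labels. Over all genes tested, 16.7% were higher and 28.3% lower in the libraries labelled cKO at an adjusted p under 0.05 (limma). Of 8 stem and progenitor markers, Kit among them, 7 fell and 0 rose at an adjusted p under 0.05 (limma), and their sum was 87.3 to 119 FPKM in WT against 21.4 to 45.2. Of 16 erythroid markers, 15 were higher and 0 lower in the libraries labelled cKO at an adjusted p under 0.05 (limma), and their summed level was 1775 to 2642 FPKM there and 704 to 1556 in WT. All 10 monocyte and dendritic cell markers were lower, with sums of 44.0 to 300.2 FPKM against 928 to 1620, led by Lyz2 at 694 ± 219.8 FPKM in WT and 47.9 ± 51.5 in the libraries labelled cKO (SD, n = 5 each). No marker of either list was at 0 in a whole group. In bulk RNA, fewer cells of a type and less RNA per cell cannot be told apart.

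The 8 genes did not move as a block. Between the libraries labelled cKO and WT, Idi1 and Lss rose, and Hmgcs1, Fdps, Srebf2 and Insig1 fell. Fdft1 and Sqle both had a log2 fold change of 0.36. Only Fdft1 passed, and narrowly, with adjusted p of 0.0498 against 0.0590 for Sqle (limma). With limma on log2(FPKM + 0.1), 3 members were higher and 4 lower at an adjusted p under 0.05, where 16.7% of all genes tested were higher and 28.3% lower. The median log2 fold change of the members was -0.04 and that of all genes tested -0.11. When a fold change of at least 2 was also required, Idi1 was called higher and 0 members were called lower, where 4.60% and 16.8% of all genes were. Scaling of the libraries moved this background, to 4646 genes higher and 3997 lower with quantile normalization from 3138 and 5300, and with the fold limit to 1514 and 2302 from 862 and 3153.

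**Figure D1:**
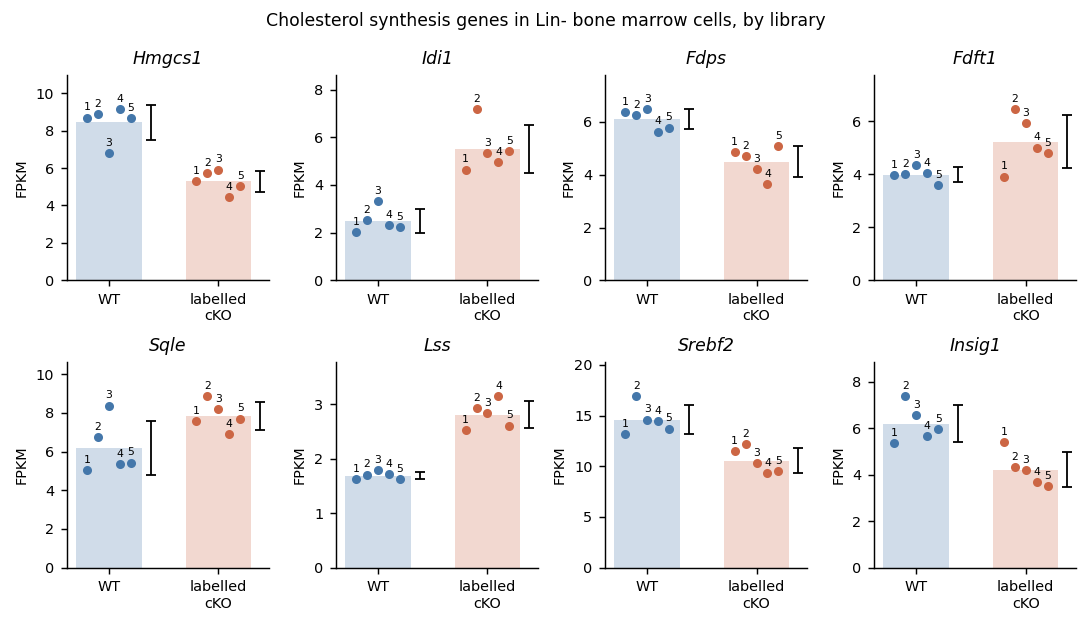
FPKM of each of the 8 genes in the 5 WT libraries and the 5 labelled cKO, with the replicate number beside each point. Bars start at 0 and show the mean, with the standard deviation as error bars beside the points. Idi1 and Lss lie higher in every library labelled cKO than in any WT library, and Hmgcs1, Fdps and Srebf2 lie lower.

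Among the enzymes, Hmgcs1 acts first (ENSMUSG00000093930, chromosome 13 of GRCm39 from 120151915 to 120170470, plus strand). Hmgcs1 was at 8.69, 8.89, 6.81, 9.16 and 8.65 FPKM in WT 1 to 5 and at 5.32, 5.72, 5.91, 4.45 and 5.02 FPKM in libraries cKO 1 to 5. The groups did not overlap, and WT 3 was nearest to the libraries labelled cKO. The mean was 8.44 ± 0.933 FPKM in WT and 5.28 ± 0.581 in the other group (SD, n = 5 each), and limma gave a log2 fold change of -0.66 ± 0.110 (SE) at an adjusted p of 7.28e-04. The exact two-sided permutation test gave p = 0.0079, the smallest that 5 against 5 libraries allow.

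Idi1 changed most among the members (ENSMUSG00000058258, chromosome 13 from 8935537 to 8942487, plus strand). Idi1 was at 2.02, 2.53, 3.32, 2.33 and 2.22 FPKM in WT 1 to 5 and at 4.64, 7.19, 5.33, 4.95 and 5.41 FPKM in libraries cKO 1 to 5. Every library labelled cKO was above every WT library, and WT 3 was the highest of its group. The mean was 2.48 ± 0.502 FPKM in WT and 5.5 ± 0.992 in the other group (SD, n = 5 each), 2.22 times that of WT, and limma gave a log2 fold change of 1.12 ± 0.160 (SE) at an adjusted p of 3.21e-04. Idi1 has near copies in the genome whose fragments may have been split from its own. Of the 5 genes named Idi1-ps, Idi1-ps1 was measured at 1.06 ± 0.617 FPKM in WT and 1.9 ± 0.731 in the libraries labelled cKO (SD, n = 5 each, adjusted p = 0.127, limma), and 3 others were listed at 0 in all 10 libraries. The last of them, Idi1-ps5, did not exceed 0.1 FPKM. The neighbouring gene Idi2, for a second isomerase, did not exceed 0.3 FPKM.

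Fdps, whose product takes up the units that the isomerase balances, went the other way (ENSMUSG00000059743, chromosome 3 from 89000888 to 89019213, minus strand). Fdps was at 6.36, 6.25, 6.49, 5.63 and 5.78 FPKM in WT 1 to 5 and at 4.84, 4.69, 4.22, 3.64 and 5.09 FPKM in libraries cKO 1 to 5. All 5 libraries labelled cKO were below all 5 of WT. The mean was 6.10 ± 0.376 FPKM in WT and 4.5 ± 0.574 in the other group (SD, n = 5 each), and limma gave a log2 fold change of -0.44 ± 0.107 (SE) at an adjusted p of 0.00642. With quantile normalization the value was -0.15 and no longer passed (adjusted p = 0.255).

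The level of Idi1 was also set against those of Hmgcs1 and Fdps within each library, where the scaling of the library cancels. Such a difference shows a relative change and cannot tell which gene of a pair moved. The log2 difference of Idi1 from Hmgcs1 was -2.05, -1.77, -1.01, -1.93 and -1.92 in WT 1 to 5. In libraries cKO 1 to 5 it was -0.19, 0.32, -0.15, 0.15 and 0.11. In FPKM, the level of Idi1 was thus well under that of Hmgcs1 in all WT libraries, least so in WT 3, and about equal to it in the libraries labelled cKO. Against Fdps, the mean difference of Idi1 was -1.28 ± 0.237 in WT and 0.28 ± 0.267 in the libraries labelled cKO (SD, n = 5 each).

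Fdft1 and Sqle, which make and oxidize squalene, were at the edge of the test. Fdft1 (ENSMUSG00000021273, chromosome 14 from 63382189 to 63417027, minus strand) was at 3.95, 4.01, 4.34, 4.03 and 3.59 FPKM in WT 1 to 5 and at 3.91, 6.46, 5.92, 5.0 and 4.78 FPKM in libraries cKO 1 to 5. Library cKO 1 lay among the WT libraries, and the other 4 lay above them. The log2 fold change by limma was 0.36 ± 0.136 (SE) at an adjusted p of 0.0498, and with 1 library left out in turn it passed in 1 of 10 fits, that without cKO 1 (0.46, adjusted p = 0.00648). Exons of Fdft1 share 1184 of 4779 bp with the cathepsin gene Ctsb on the opposite strand, and Ctsb itself was lower in the libraries labelled cKO (31.8 ± 8.38 FPKM) than in WT (55.5 ± 2.15, SD, n = 5 each, log2 fold change -0.83). The sources used here do not state whether counting used the strand, and the part of Ctsb in the value of Fdft1 was not tested.

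Sqle (ENSMUSG00000022351, chromosome 15 from 59186869 to 59203043, plus strand) was at 5.02, 6.75, 8.37, 5.34 and 5.43 FPKM in WT 1 to 5 and at 7.57, 8.86, 8.20, 6.90 and 7.70 FPKM in libraries cKO 1 to 5. WT 3 was above 4 of the libraries labelled cKO, and the other 4 WT libraries were below all of them. The log2 fold change was 0.36 (95% confidence interval 0.05 to 0.67) with an adjusted p of 0.0590 (limma), and without WT 3 it was 0.47 (adjusted p = 0.00702). Its exons share 470 bp with Washc5 on the opposite strand, a gene at 17.4 ± 0.275 FPKM in WT and 17.5 ± 0.793 in the libraries labelled cKO (SD, n = 5 each).

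Lss, for the cyclase that makes the first sterol, rose with little spread (ENSMUSG00000033105, chromosome 10 from 76367298 to 76392976, plus strand). Lss was at 1.62, 1.71, 1.79, 1.72 and 1.62 FPKM in WT 1 to 5 and at 2.53, 2.93, 2.84, 3.15 and 2.61 FPKM in libraries cKO 1 to 5. The groups were far apart compared with the spread of either. The mean was 1.69 ± 0.0726 FPKM in WT and 2.81 ± 0.25 in the other group (SD, n = 5 each), and limma gave a log2 fold change of 0.70 ± 0.118 (SE) at an adjusted p of 7.94e-04.

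Both regulator genes fell. Srebf2 (ENSMUSG00000022463, chromosome 15 from 82031382 to 82093201, plus strand) was at 13.18, 16.91, 14.60, 14.43 and 13.71 FPKM in WT 1 to 5 and at 11.46, 12.16, 10.29, 9.35 and 9.51 FPKM in libraries cKO 1 to 5. The groups did not overlap. The mean was 14.6 ± 1.43 FPKM in WT and 10.6 ± 1.23 in the other group (SD, n = 5 each), and limma gave a log2 fold change of -0.46 ± 0.0972 (SE) at an adjusted p of 0.00282. Insig1 (ENSMUSG00000045294, chromosome 5 from 28276315 to 28283668, plus strand), a target of SREBP-2 and a brake on it, was at 5.38, 7.39, 6.57, 5.68 and 5.98 FPKM in WT 1 to 5 and at 5.40, 4.34, 4.21, 3.68 and 3.51 FPKM in libraries cKO 1 to 5. Library cKO 1 lay just above WT 1, and the other 4 were below all WT libraries. The log2 fold change of Insig1 by limma was -0.55 ± 0.135 (SE) at an adjusted p of 0.00686, and it was -0.25 and did not pass with quantile normalization (adjusted p = 0.181). Within libraries the log2 difference of Insig1 from Srebf2 was -1.22 ± 0.0780 in WT and -1.31 ± 0.153 in those labelled cKO (SD, n = 5 each).

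FPKM is a level per gene length, so levels can be set beside each other as far as the lengths used are right. Those lengths are not given in the sources used here, and the ranks below depend on them. In WT the order was Srebf2, Hmgcs1, Insig1, Sqle, Fdps, Fdft1, Idi1 and Lss, from 14.6 to 1.69 FPKM on average. Of these neighbours, the ranges of Hmgcs1 and Insig1, of Insig1 and Sqle and of Sqle and Fdps overlapped. In the libraries labelled cKO the order was Srebf2, Sqle, Idi1, Hmgcs1, Fdft1, Fdps, Insig1 and Lss, from 10.6 to 2.81 FPKM. Srebf2 stood clear at the top and Lss at the bottom, while the ranges of each neighbouring pair from Sqle to Insig1 overlapped. Idi1 moved from rank 7 to rank 3, and Insig1 from 3 to 7.

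The 3 WT libraries with Xist above 1 FPKM, WT 3, 4 and 5, have no counterpart in the other group. When only WT 1 and WT 2 were set against the 5 libraries labelled cKO, all 8 log2 fold changes kept their sign. Idi1 was at 1.23 (adjusted p = 0.0105), Hmgcs1 at -0.73 (0.0142), Lss at 0.72 (0.0266) and Srebf2 at -0.50 (0.0470, all limma). Fdps at -0.49 (adjusted p = 0.0617), Insig1 at -0.58 (0.0835), Fdft1 at 0.36 (0.236) and Sqle at 0.42 (0.0857) did not pass in this smaller comparison.

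**Figure D2:**
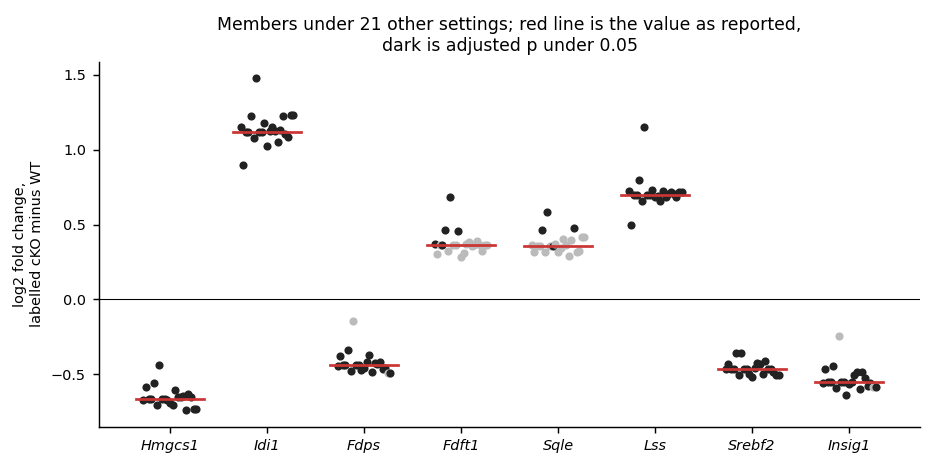
Log2 fold change of each member (labelled cKO minus WT) under 21 other settings, each a point, with the reported value as a red line and values with an adjusted p under 0.05 in dark. The sign of every member was the same under all 21, and the calls of Idi1, Lss, Hmgcs1 and Srebf2 held under all of them.

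The enzymes next to the members were then taken from a list of 13 further genes of the pathway. Of these, 1 rose (Hsd17b7), 4 fell (Acat2, Mvk, Ebp and Dhcr7) and 8 did not pass, and 0 changed by 2-fold or more. The median log2 fold change was -0.17. With the 6 member enzymes, 4 of 19 enzymes rose, 6 fell and 9 did not pass, shares near the 16.7% higher and 28.3% lower among all genes, and 1 of the 4 was Fdft1.

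Steps before Idi1 lay at or below 0. Acat2, whose thiolase makes the acetoacetyl-CoA that Hmgcs1 uses, was at 11.0 ± 1.01 FPKM in WT and 8.95 ± 0.773 in the libraries labelled cKO, a log2 fold change of -0.29 (adjusted p = 0.0199, limma). Mvk, for mevalonate kinase, fell from 2.60 ± 0.313 to 1.46 ± 0.326 FPKM (log2 fold change -0.81, adjusted p = 0.00324, limma, SD, n = 5 each). The kinase and decarboxylase that follow were not called, with -0.12 for Pmvk (adjusted p = 0.412) and -0.56 for Mvd (adjusted p = 0.0779, limma).

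The steps after Lss, which turn lanosterol into cholesterol, were mixed. Hsd17b7, for a keto-sterol reductase, rose by limma (log2 fold change 0.79, adjusted p = 0.00388), from 1.37 ± 0.222 to 2.46 ± 0.478 FPKM on average (SD, n = 5 each), and its groups did not overlap. Dhcr7, for the reductase that makes cholesterol from 7-dehydrocholesterol, fell by limma (log2 fold change -0.90, adjusted p = 1.19e-04), from 5.30 ± 0.389 to 2.79 ± 0.271 FPKM on average (SD, n = 5 each), also without overlap. Ebp, for the sterol isomerase, fell by 0.40 on the log2 scale (adjusted p = 0.0226, limma). Among those not called were Cyp51 (0.21), Tm7sf2 (-0.17), Msmo1 (0.41), Nsdhl (-0.10) and Sc5d (0.17), with adjusted p from 0.0702 to 0.511 (limma).

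**Figure D3:**
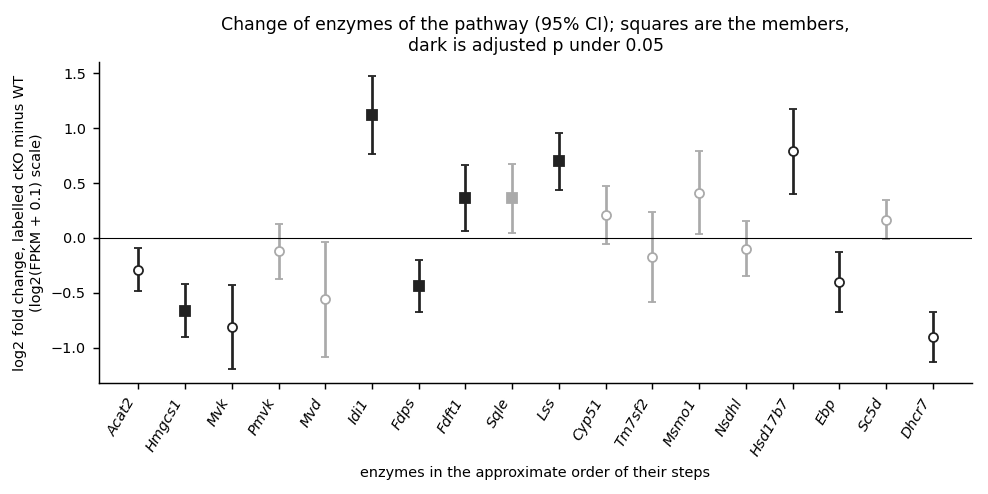
Log2 fold change (labelled cKO minus WT, log2(FPKM + 0.1) scale) with 95% confidence interval for enzymes of the pathway in the approximate order of their steps. Squares are the members, open circles the other enzymes, and dark symbols have an adjusted p under 0.05. Idi1, at 1.12, stands between Mvd at -0.56 and Fdps at -0.44.

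Genes around the pathway were described in 5 further lists, whose counts stand beside the 16.7% of all genes that were higher and the 28.3% that were lower. The machinery that moves, cuts and degrades SREBP and its partners went both ways, with 4 of 12 genes higher, 4 lower and a median log2 fold change of -0.07. Among those that rose were Rnf145 (0.65), Rnf139 (0.30) and Scap (0.31), the last for the escort of SREBP, while Erlin1 (-0.58), Erlin2 (-0.60), Mbtps1 (-0.25), for a protease that cuts SREBP, and Marchf6 (-0.19) fell. Srebf1 was at 13.3 ± 1.06 FPKM in WT and 14.7 ± 2.18 in the libraries labelled cKO (adjusted p = 0.339, limma), and Insig2 was at 5.75 ± 0.564 and 5.13 ± 0.424 FPKM (adjusted p = 0.202, limma, SD, n = 5 each).

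Of the genes of sterol uptake, transport and storage, 10 of 13 were lower and 1 higher, beside 28.3% and 16.7% of all genes, with a median log2 fold change of -0.69. Soat1, which encodes an enzyme that esterifies cholesterol for storage, was at 14.32, 10.67, 7.0, 12.74 and 14.53 FPKM in WT 1 to 5 and at 1.56, 0.39, 2.04, 0.30 and 3.37 FPKM in libraries cKO 1 to 5, a log2 fold change of -3.28 (adjusted p = 8.22e-04, limma). Libraries cKO 2 and cKO 4 were the lowest. These were also the lowest in the monocyte and dendritic cell markers, with a mean log2(FPKM + 0.1) of 0.62 and -0.71 where the other 3 were at 1.15 to 3.82 and WT at 5.51 to 6.17. They were likewise the lowest of their label in the neutrophil, megakaryocyte, T and NK, and mast cell and basophil markers. By this mean, the same held for the stem and progenitor and the stromal, endothelial and adipocyte markers, but not for the B-lymphoid and erythroid ones. By summed FPKM, the stromal, endothelial and adipocyte list was instead highest in cKO 4 (9.85) and lowest in cKO 1 (4.64). The B-lymphoid sums were lowest in cKO 4 (0.87) and cKO 2 (1.29). The part of any of these cells in the fall was not tested. Lrp1 (-2.76), a receptor for lipoproteins and other ligands, Vldlr (-1.9), another of that family, Npc2 (-1.13), for a lysosomal cholesterol carrier, Gramd1a (-1.09) and Lipa (-1.08), for the lysosomal lipase, also fell by over 2-fold. Lrp8, a lipoprotein receptor, rose by limma (log2 fold change 0.53, adjusted p = 0.0154), from 2.83 ± 0.262 to 4.17 ± 0.892 FPKM on average (SD, n = 5 each).

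On the list of LXR, the receptor that answers to oxysterols, and of cholesterol efflux, 10 of 11 genes were tested, as Ch25h was listed at 0 in all libraries. Of the 10, 5 fell and 0 rose, with a median log2 fold change of -0.49. Cyp27a1, for sterol 27-hydroxylase, fell from 6.83 ± 1.59 to 0.590 ± 0.519 FPKM (log2 fold change -3.76), Rxra from 2.76 ± 0.569 to 0.796 ± 0.363 (-1.75) and the exporter gene Abcg1 from 2.45 ± 0.424 to 0.838 ± 0.298 (-1.49; SD, n = 5 each). Cyp27a1 was at 0.6, 0.16, 0.86, 0.03 and 1.3 FPKM in libraries cKO 1 to 5, again lowest in cKO 2 and cKO 4. Most marker lists, that of monocytes and dendritic cells among them, were lowest in these libraries, and the part of any cell type was not tested. Smpdl3a, a known LXR target, fell from 42.5 to 13.3 FPKM (-1.70). Abca1, another exporter, had a log2 fold change of -0.58 (adjusted p = 0.125, limma).

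Of 12 genes of fatty acid synthesis, a program of SREBP-1, 3 rose and 2 fell, with a median log2 fold change of -0.01. Me1, for the malic enzyme that supplies NADPH, was at 0.03 to 0.10 FPKM in WT and at 0.11, 2.30, 1.76, 1.5 and 0.64 FPKM in libraries cKO 1 to 5 (log2 fold change 2.64, adjusted p = 0.00405, limma), a value that depends on the pseudocount. The desaturase gene Scd1 was at 1.25 to 2.42 FPKM in WT and at 3.5, 0.34, 0.46, 0.10 and 0.15 FPKM in libraries cKO 1 to 5 (log2 fold change -1.9, adjusted p = 0.0372, limma), with library cKO 1 above all others. Acly, which supplies cytosolic acetyl-CoA to both pathways, was at 58.5 ± 1.78 and 58.3 ± 2.82 FPKM (SD, n = 5 each), and the 95% confidence interval of its log2 fold change ran from -0.12 to 0.11.

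Of 15 genes that use isoprenoids made on the way to cholesterol, 5 rose and 3 fell, with a median log2 fold change of 0.16. Pggt1b (0.62) and Rabggtb (0.64), for subunits of protein geranylgeranyl transferases, and Nus1 (0.43), for a partner of the dolichol-making enzyme, rose. Dhdds, for that enzyme itself, fell by limma (log2 fold change -0.66, adjusted p = 6.56e-04), from 20.4 ± 1.68 to 12.9 ± 2.06 FPKM on average (SD, n = 5 each).

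**Figure D4:**
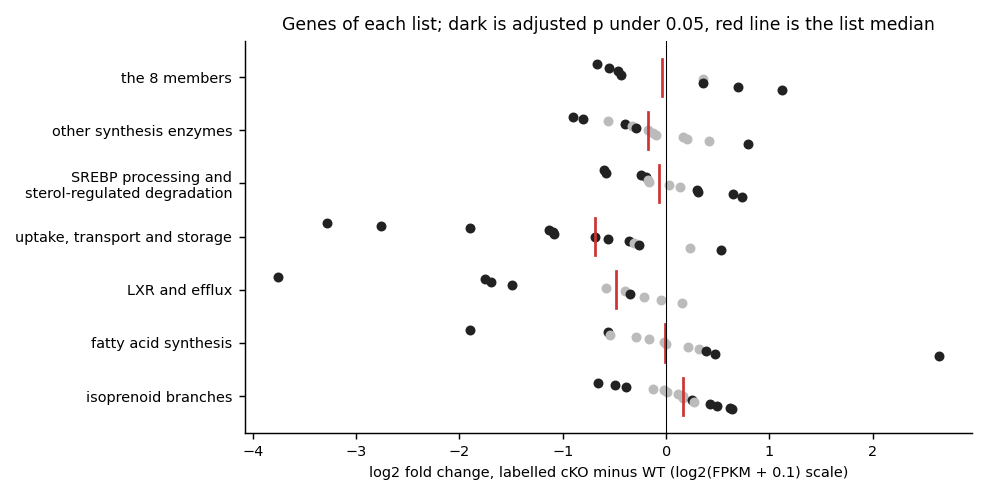
Log2 fold change (labelled cKO minus WT, log2(FPKM + 0.1) scale) of each gene of the members and of 6 lists around them. Dark points have an adjusted p under 0.05 and the red line is the median, which is -0.04 for the members and lies farthest from 0 for uptake, transport and storage, at -0.69.

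The erythroid markers differed between the labels, as several members did. The 2 most abundant markers of the list over all 10 libraries were Hba-a1, which may share reads with Hba-a2, at 192 ± 135 FPKM in WT and 695 ± 173 in the libraries labelled cKO, and the transferrin receptor gene Tfrc, at 110 ± 21.7 and 220.2 ± 48.0 FPKM (SD, n = 5 each). WT 3 stood apart from the other WT libraries in the same direction, with a mean log2(FPKM + 0.1) of the 16 markers of 6.05 against 4.94 to 5.34, while the libraries labelled cKO were at 6.26 to 6.67. In the 6 enzyme genes, WT 3 was the highest WT library in Idi1, Fdps, Fdft1, Sqle and Lss and the lowest in Hmgcs1. Of these ranks, those of Idi1, Lss, Fdft1, Sqle and Hmgcs1 lie toward the libraries labelled cKO and that of Fdps does not. Within the label cKO, library cKO 1 had the highest erythroid mean, 6.67, against 6.26 to 6.54 in the others. That library was the lowest of its label in Idi1 (4.64 FPKM), Lss (2.53) and Fdft1 (3.91). Counted from the highest, its rank was 4 in Sqle, 3 in Hmgcs1 and 2 in Fdps. Without WT 3, the log2 fold change of Idi1 was 1.23 and that of Hmgcs1 -0.74, both larger than with it, and the part of erythroid cells in these values was not tested.

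**Figure D5:**
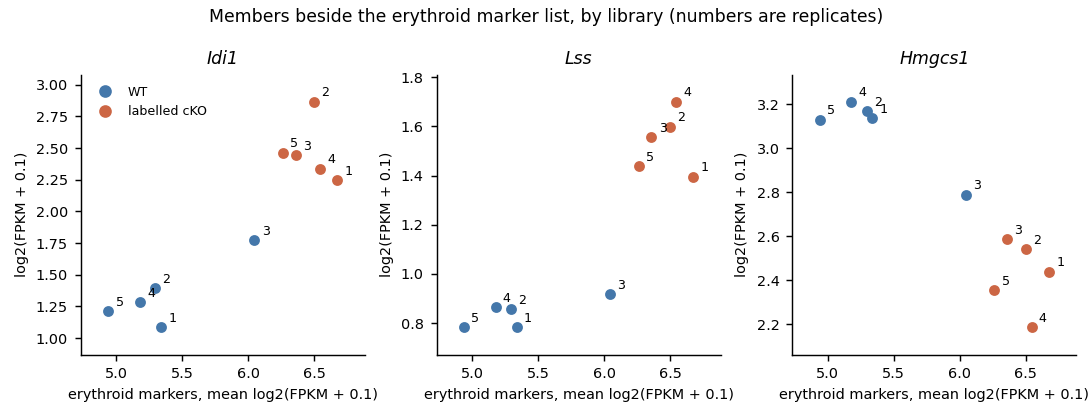
Log2(FPKM + 0.1) of Idi1, Lss and Hmgcs1 against the mean log2(FPKM + 0.1) of 16 erythroid markers in each library, with replicate numbers beside the points. The libraries fall into separate groups by label, and WT 3, at 6.05 on the x axis, lies between the other WT libraries and those labelled cKO in Idi1 and Hmgcs1 and stays with WT in Lss.

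By deviations from the group means over the 10 libraries, the 5 genes most like the mean of the members among the 12344 genes at 1 FPKM or more on average were E2f3 (r = 0.94), Cdca7 (0.91), Txnrd1 (0.91), Txndc9 (0.90) and Tusc2 (0.90). These values describe 10 libraries that share depth and composition. These 5 were picked as the highest of all. Among the members themselves, with no such choice, the correlation of a member with the mean of the other members was 0.77 for Sqle, 0.74 for Srebf2 and 0.73 for Idi1 but 0.13 for Lss and -0.04 for Hmgcs1.

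The promoters of members that rose and of members that fell were set beside each other. RefSeq windows from 250 bp before to 50 bp after the gene start were on hand for 5 of the 8 members, Hmgcs1, Idi1, Lss, Srebf2 and Insig1, from a table of build GRCm38.p6, and each was found once, unchanged, on its chromosome in GRCm39. Both strands were searched for TCACNCCAC, a form of the sterol regulatory element that SREBP binds, for CCAAT, bound by NF-Y, and for GGGCGG, bound by SP1, and no letters of one motif were taken out of the search for another. CCAAT was in all 5 windows and in 37.4% of all 32851 windows, and GGGCGG was in all 5 and in 35.7%. TCACNCCAC was in that of Hmgcs1 and in 1.24% of all windows, and none of the other 4 windows held these exact letters. The stretches below show the CCAAT letters, which read ATTGG on this strand, and in Hmgcs1 also the sterol regulatory element letters, both in capitals. They are written 5′ to 3′ along the gene.
Hmgcs1, fell, chr13:120151707-120151766, plus strand: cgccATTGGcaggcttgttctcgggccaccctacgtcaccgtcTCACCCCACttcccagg
Idi1, rose, chr13:8935584-8935613, plus strand: ttgcctccagctgATTGGcgagcccgggca
Lss, rose, chr10:76367364-76367393, plus strand: tggtgatgctctgATTGGccgagctcgcat
Srebf2, fell, chr15:82031320-82031379, plus strand: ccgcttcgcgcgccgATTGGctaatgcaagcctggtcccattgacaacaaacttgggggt
Insig1, fell, chr5:28276180-28276239, plus strand: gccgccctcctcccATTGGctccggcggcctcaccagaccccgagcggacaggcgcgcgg

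Counted from the RefSeq gene start, these CCAAT letters begin at -62 in Lss, -45 in Idi1, -135 in Srebf2, -216 in Insig1 and -176 in Hmgcs1, and the sterol regulatory element letters of Hmgcs1 begin at -137. CCAAT also begins at -14 in Idi1 and at -237, -45 and 11 in Hmgcs1. The stretches of Idi1 and Lss lie within exons of GENCODE transcripts that start farther upstream and are shown at 30 bases. Of the 13 other enzymes, 12 had a window, of which 11 held CCAAT, 11 GGGCGG and 0 TCACNCCAC. CCAAT was thus found both in members that rose and in members that fell.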

How the data were processed

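RNA-seq of Lin- bone marrow cells was analyzed from 5 WT and 5 cKO libraries. The authors trimmed adapters, primers and low-quality reads, aligned to GRCm39 with HISAT2 2.0.1 and deposited 1 FPKM value for each gene in each library, with 2 decimals. The submitters' processing notes also name cutadapt 1.9.1 and HTSeq 0.6.1. The annotation and gene lengths behind the FPKM are not given in the sources used here. Identifiers were matched to symbols and coordinates with GENCODE vM39 (GRCm39).

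FPKM are not counts, so limma 3.58.1 (lmFit and eBayes with trend, R 4.3.3) compared the groups on the log2(FPKM + 0.1) scale in a two-sided test of 18742 genes, those averaging 0.1 FPKM or more, and Benjamini-Hochberg adjustment took in all of them. Fold changes on this scale understate those of low genes. Calls used the study's limits, a fold change of 2 together with an adjusted p under 0.05, and also the adjusted p alone. The limma p-values weigh the difference between group means against the spread of libraries within a label. They do not separate the genotype from other differences between the labels, such as that in Xist. The steps were tested on simulated data. Exact permutation tests used Python 3.11.15 and scipy 1.17.1. Depth was read from genes with 1 transcript, whose values of up to 20 fragments were whole within 0.2 in 96.8% to 97.1% of cases per library.

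The members and lists were chosen with earlier results of these data known. The 6 pathway lists and 9 marker lists come from general knowledge and do not hold every gene of each step, and some of their genes are counted but not reported by name here. Named genes were the members, in each pathway list those called with the fold limit and up to 4 of the largest change at 1 FPKM or more (all 13 of the other enzymes), the 5 genes most alike, Dhx9, Xist and Ddx3y as checks, and the most abundant markers. Genes that overlap the members or are their copies, Idi2, Kit, Cd3e, Cd3d, Nkg7, and Rnf139, Scap, Mbtps1, Marchf6, Srebf1, Insig2, Lrp8, Ch25h, Acly and Nus1 were chosen after their values were seen. Alternatives were other pseudocounts, filters and scalings, no trend, a block for the replicate number, each library left out, and the WT libraries with Xist above 1 FPKM left out or given a covariate. The other marker lists moved as follows in median log2 fold change: neutrophil -1.24, B-lymphoid -1.86, T and NK -1.17, megakaryocyte -2.48, mast cell and basophil -1.69, stem and progenitor -2.07, and stromal, endothelial and adipocyte -1.37. Those of the erythroid and the monocyte and dendritic cell lists were 1.00 and -4.59.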

Additional observations from a re-analysis of the deposited data

Results flagged for a closer look

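Of 28 groups of 5 libraries, each a member or a pathway list within one label, Dixon's test singled out 1 library in 2 of them, and chance alone singles out about 1 group in 20, or 1.4. Hmgcs1 was at 6.81 FPKM in WT 3 and at 8.65 to 9.16 in the other WT libraries. The isoprenoid list had a mean log2(FPKM + 0.1) of 3.42 in library cKO 1 and of 3.52 to 3.54 in the other libraries of its label.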

How the results depend on the processing

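Under the 21 other settings of the fit, the 8 members kept their sign, and the calls of Hmgcs1, Idi1, Lss and Srebf2 at an adjusted p under 0.05 held in all 21. That of Fdft1 was lost in 16 of 21 and that of Sqle was gained in 4, while Fdps and Insig1 each lost theirs in 2, quantile normalization and the fit without the WT libraries with Xist above 1 FPKM. Under each of these 2, 2 members were lower in place of 4. With the fold limit, 0 members were higher with a pseudocount of 1 and 2 (Idi1 and Lss) with quantile normalization, which also moved the median of the members to 0.22 and that of all genes from -0.11 to 0.10. Genes of the pathway lists called higher numbered 23 with median-ratio scaling, 3 without those WT libraries and 9 with the Xist covariate, against 14. The cause was not tested. Over all genes, the counts with the fold limit were 356 higher and 1486 lower with a pseudocount of 1 and 541 and 2347 without those WT libraries, against 862 and 3153. On adjusted p alone they were 1651 and 3181 without those libraries and 2035 and 4021 with the covariate, against 3138 and 5300. With each library left out, Idi1 was at 1.02 to 1.23, Hmgcs1 at -0.74 to -0.61 and Lss at 0.66 to 0.73. Same-numbered libraries did not deviate together in every pair (correlations from -0.077 to 0.193). Pairs of unlike number were at -0.202 to 0.161, so that replicates 5 (0.193) and 1 (0.185) gave the highest values of all pairs. With the replicate number as a block, 3 members were higher and 4 lower as before, with Sqle (adjusted p = 0.0358) in place of Fdft1 (0.0541). Whether replicates come from separate litters is not stated.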
